A study of Mus musculus with 14 samples.

Results

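The 10 genes described here encode enzymes of glycolysis, and their entries were found by symbol: Hk2, Gpi1, Aldoa, Tpi1, Gapdh, Pgk1, Pgam1, Eno1, Pkm and Ldha. All 10 had an entry in each of the 3 deposited tables, which list 19322 genes for E10 single cells, 19424 for E11 single cells and 19425 for whole intra-aortic haematopoietic clusters (wIAHCs). They were followed through 1121 single cells of 13 sorted populations (546 at E10, 575 at E11) and through single picked wIAHCs. The study mapped the steps by which endothelium of the mouse aorta makes blood, and it sequenced cells and wIAHCs with CEL-Seq, a method that primes transcripts at their 3′ ends and marks them with unique molecular identifiers (UMIs). A transcript is therefore counted once whatever its length, and levels are compared between genes as transcripts per cell.

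All embryos were staged as E10 (28–32 somite pairs) or E11 (over 40 somite pairs). Non-haemogenic endothelial cells (non-HE; Cdh5+, Gfi1-, Gfi1b-, c-kit-), haemogenic endothelial cells (HE; Cdh5+, Gfi1+, Gfi1b-, c-kit-) and cells in endothelial-to-haematopoietic transition (EHT; Cdh5+, Gfi1+, Gfi1b-, c-kit+) came from the aorta-gonad-mesonephros region of ICR embryos with the genotype Gfi+/tomato/ Gfi1b+/GFP. Their sort read 1 fluorescent reporter allele at each of 2 blood transcription factor genes, which were heterozygous in those embryos. IAHC cells (c-kit+CD31+ at both stages, and a second E11 sample sorted on c-kit+), E11 type 1 and type 2 pre-HSCs (c-kit+, Cdh5+, with CD45 recorded), yolk sac cells (YS; c-kit+) and wIAHCs came from WT C57BL/6 embryos. After sequencing, the paper kept as IAHC cells those with Gpr56 transcripts and without transcripts of non-IAHC genes above a limit. Its number of E10 IAHC cells equals the number used here. Strain and genotype thus differ between HE or EHT cells and the later populations, and for YS cells the site too, and their parts cannot be told apart from that of cell type where those groups are compared. AGM regions were pooled before sorting, and early E11 stands in the names given to the E10 non-HE cells in the table. Other names also carry ages within a stage. E10 HE names give an age between E10 and E11, and E10 EHT names mix it with late E10. E11 HE and EHT names give late E11, and E11 non-HE names mix it with an age past E11. The part of these ages was not tested. A sorted set here means cells whose column names differ only in the last number, and no label says what it stands for. The E10 IAHC, E11 HE, E11 EHT and E11 YS cells were each deposited as a single sorted set.

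Glycolysis splits glucose into pyruvate in the cytosol and yields ATP without oxygen. Hexokinase traps glucose in the cell, the upper enzymes rearrange and cleave the sugar, the lower enzymes from Gapdh to Pkm harvest ATP and NADH, and lactate dehydrogenase turns pyruvate into lactate and restores NAD+. Many of these genes are well-known targets of hypoxia-inducible factors, which bind the core ACGTG or GCGTG, and of Myc, which binds CACGTG. Blood stem cells of the adult marrow are known for relying on glycolysis.

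The genes lie on 6 chromosomes in RefSeq GRCm38.p6: Gpi1 (chr7:34201327-34230336), Ldha (chr7:46842274-46855627) and Aldoa (chr7:126795234-126800994) on chromosome 7, Hk2 (chr6:82725025-82774454), Tpi1 (chr6:124810586-124814158) and Gapdh (chr6:125161852-125166467) on chromosome 6, Pgk1 on X (chrX:106187100-106203699), Pgam1 on 19 (chr19:41911871-41918665), Eno1 on 4 (chr4:150236708-150248879) and Pkm on 9 (chr9:59656576-59679372). Windows from 250 bases before to 50 bases after the RefSeq transcript starts were searched on both strands for ACGTG and GCGTG. At least 1 match was found for 8 of the 10 genes (all but Gpi1 and Tpi1), against 46.7% of 27025 genes with such windows. ACGTG was found for 7 of the 10 genes (21.8% of all genes), GCGTG for 4 (35.2%), and CACGTG, which contains ACGTG on both strands, for Ldha only (8.09%). Hk2 had 0 transcripts in non-HE cells and some in blood cells. Ldha had the highest count of matches (7 counted over both strands), and Pgk1 the closest fit to the sum of the others across populations. The windows of these 3 genes are shown. They are Ldha at chr7:46845554-46845853 on the plus strand, Pgk1 at chrX:106186850-106187149 on the plus strand and Hk2 at chr6:82774405-82774704 on the minus strand, and capitals mark ACGTG or GCGTG on either strand (on the minus strand they read CACGT or CACGC). A match is a description of the letters and not a bound site.
Ldha: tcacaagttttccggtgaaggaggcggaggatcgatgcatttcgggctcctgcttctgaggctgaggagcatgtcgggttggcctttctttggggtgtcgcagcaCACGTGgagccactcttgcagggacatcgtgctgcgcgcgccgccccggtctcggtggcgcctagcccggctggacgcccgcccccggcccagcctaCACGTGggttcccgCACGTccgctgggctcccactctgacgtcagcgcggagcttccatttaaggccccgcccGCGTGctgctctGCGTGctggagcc
Pgk1: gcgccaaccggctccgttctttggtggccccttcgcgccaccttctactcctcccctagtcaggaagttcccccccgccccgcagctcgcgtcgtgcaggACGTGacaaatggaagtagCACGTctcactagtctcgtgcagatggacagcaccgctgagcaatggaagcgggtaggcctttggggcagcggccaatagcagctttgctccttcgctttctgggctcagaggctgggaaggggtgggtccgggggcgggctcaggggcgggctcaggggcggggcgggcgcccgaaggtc
Hk2: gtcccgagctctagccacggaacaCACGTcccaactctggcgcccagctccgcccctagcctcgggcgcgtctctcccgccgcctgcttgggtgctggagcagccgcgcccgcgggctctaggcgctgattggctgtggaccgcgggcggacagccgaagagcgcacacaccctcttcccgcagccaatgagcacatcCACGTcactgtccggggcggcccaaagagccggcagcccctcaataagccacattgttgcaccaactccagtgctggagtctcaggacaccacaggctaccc

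The level of 2 of the enzymes is uncertain because their 3′ ends are nearly copied elsewhere in the genome. The last 500 bases of the Gapdh transcript matched 62 other genes at 97% identity or more over at least 100 bases, and 3 of these (Gm12070, Gm5069 and Gm5523) had entries of their own. Among these 3 the highest identity was 100% and the longest match 322 bases, not necessarily in the same match. Gm12070 held 33.4% to 48.4% of the transcripts of Gapdh and Gm12070 together in the 13 populations, and 23.8% to 53.2% in single sorted sets. The last 500 bases of Eno1 matched 2 other genes, of which Gm5506 had an entry, at 99.4% over 497 bases. Eno1 itself was at 0 to 0.109 transcripts per cell, so enolase is given below from the entries summed. The other 8 enzymes had 0 such copies.

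The summed transcripts of the 10 enzymes were lowest in endothelium and highest in the yolk sac at both stages. At E10, where every cell had been brought to 3000 transcripts, they made up 0.369% of all transcripts in non-HE cells (95% Poisson interval 0.337–0.404), 0.548% in HE cells (0.522–0.575), 0.838% in EHT cells (0.814–0.862), 0.805% in IAHC cells (0.767–0.843) and 1.212% in YS cells (1.18–1.25). At E11, with 5000 transcripts in every cell, the shares were 0.298% (0.271–0.327) in non-HE, 0.273% (0.252–0.295) in HE, 0.484% (0.456–0.514) in EHT, 0.488% (0.464–0.513) in type 1 pre-HSCs, 0.566% (0.538–0.595) in type 2 pre-HSCs, 0.588% (0.573–0.603) in c-kit+CD31+ IAHC, 0.559% (0.537–0.582) in c-kit+ IAHC and 0.943% (0.903–0.983) in YS cells. Neighbours in this order whose intervals overlap were EHT and IAHC at E10, and at E11 HE and non-HE, EHT and type 1 pre-HSCs, and type 2 pre-HSCs and both IAHC samples with each other. Each population is 1 GEO sample (both pre-HSC types share 1), so no test was run between them, and the intervals cover counting error only.

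**Figure D1:**
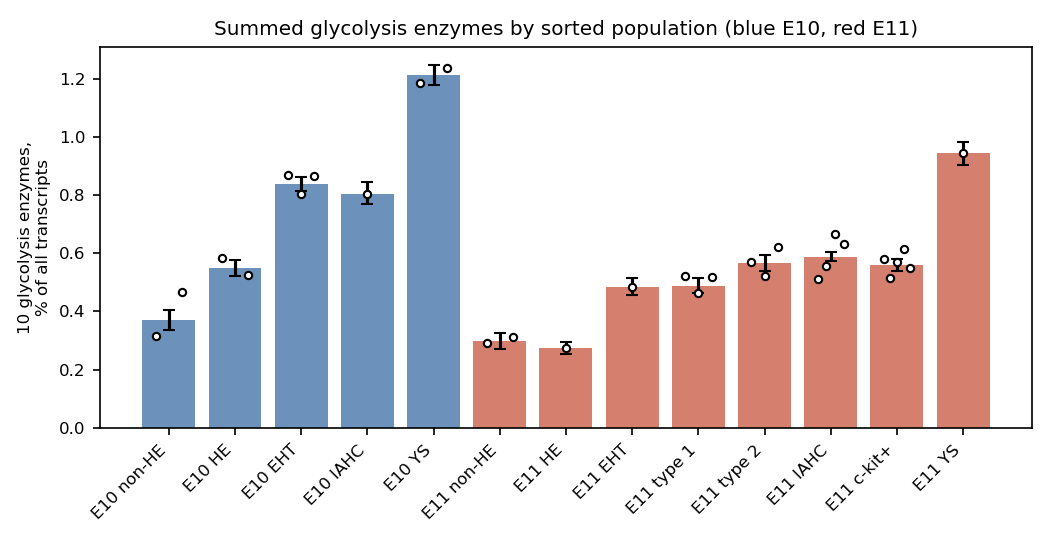
Share of all transcripts taken by the 10 glycolysis enzymes (y axis, percent) in each sorted population (x axis), with E10 in blue and E11 in red. Bars are the pooled share, whiskers its 95% Poisson interval, and white points the single sorted sets. The share goes from 0.369% in E10 non-HE to 1.212% in E10 YS cells and from 0.273% in E11 HE to 0.943% in E11 YS cells.

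Sorted sets of the same population differed by more than counting error in places. The E10 non-HE sets averaged 9.5 and 14 transcripts of the enzymes per cell, and the 4 sets of E11 c-kit+CD31+ IAHC cells 25.5 to 33.4. In the 3 sets of E10 EHT cells the averages lay close together, at 24.1 to 26.1. Type 1 and type 2 pre-HSCs are 1 sample split by CD45, and in the 3 sets that carry the same numbers type 2 averaged 28.4, 26.08 and 31 transcripts per cell and type 1 26, 23.18 and 25.85, so type 2 was higher in all 3. The order of the E10 groups from non-HE to HE to EHT to YS was the same in every set, with non-HE at most 14, HE 15.8–17.5, EHT at least 24.1 and YS 35.5–37.1 transcripts per cell.

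Single cells overlapped between neighbouring populations. The sum ran over 5, 9 and 28 transcripts (lowest, median and highest cell) in E10 non-HE, 6, 16 and 30 in HE, 6, 25 and 46 in EHT, 11, 23 and 54 in IAHC and 20, 36 and 62 in YS cells. Of 191 E10 EHT cells, 169 (88.5%) lay above the HE median, and of 141 E10 YS cells 136 (96.5%) lay above the IAHC median. At E11 the corresponding counts were 42 of 46 EHT cells (91.3%) and 44 of 46 YS cells (95.7%). The variance between cells was 1.6 to 2.08 times the mean at E10 and reached 4.49 times the mean in E11 EHT and 4.23 times in E11 non-HE cells, where 1 cell held 48 transcripts against a median of 14.

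**Figure D2:**
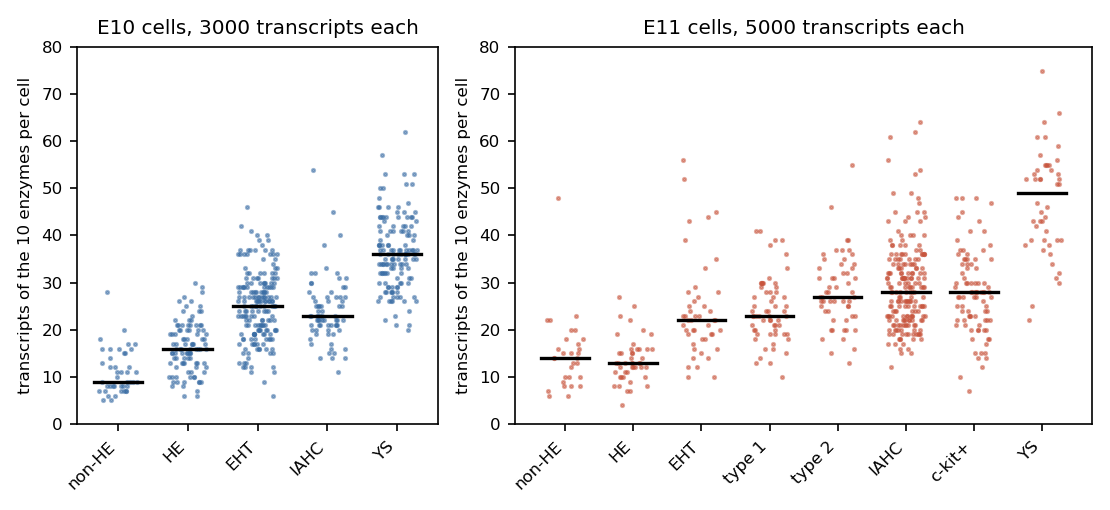
Transcripts of the 10 enzymes in each cell (points) by sorted population, for E10 cells of 3000 transcripts (left) and E11 cells of 5000 transcripts (right). Black lines are medians, from 9 in E10 non-HE to 36 in E10 YS and from 13 in E11 HE to 49 in E11 YS cells, and the clouds of neighbouring populations overlap.

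Hexokinase 2, which commits glucose to the cell, was the one enzyme other than Eno1 that was at 0 in whole endothelial populations. It had 0 transcripts in 43 E10 non-HE cells, which at the limit of 3 counts allows up to 6.98% of cells with a detected transcript (8.22% by the exact 95% interval), 0 in 30 E11 non-HE cells (up to 10%, or 11.57%) and 0 in 46 E11 HE cells (up to 6.52%, or 7.71%). It stood at 0.041 transcripts per cell in E10 HE, 0.246 in EHT, 0.301 in IAHC and 0.518 in YS cells, where 38.3% of cells held a transcript. At E11 its level was 0.087 in EHT, 0.129 in type 1 and 0.218 in type 2 pre-HSCs, 0.244 and 0.270 in the IAHC samples and 0.326 in YS cells.

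Gpi1, which turns glucose 6-phosphate into fructose 6-phosphate, went from 0.651 transcripts per cell in E10 non-HE and 0.796 in HE to 1.32 in EHT, 1.521 in IAHC and 1.64 in YS cells. Aldoa, the aldolase that cleaves the phosphorylated sugar, went from 1.465 and 2.04 to 3.14, 3.27 and 4.32 in the same order. Tpi1, which interconverts the products of that cleavage, was at 0.698, 0.929, 1.314 and 1.616 before 3.72 in the yolk sac. For these upper enzymes non-HE was the lowest and YS the highest of the 5 E10 populations.

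Gapdh, the enzyme that makes NADH, was the most abundant of the 10 and held 27.9% to 40.3% of their summed transcripts. It had 3.67 transcripts per cell in E10 non-HE, 6.38 in HE, 10.1 in EHT, 8.30 in IAHC and 10.1 in YS cells, and EHT cells stood at the same level as YS cells. With the near-identical entries added, the same populations had 6.47, 10.54, 17.7, 14.1 and 16.1 transcripts per cell. In E11 c-kit+CD31+ IAHC cells the averages of the 4 sorted sets ran from 4.9 to 12.45 Gapdh transcripts per cell, a wider span than the one between E11 HE (4.0) and E11 EHT (9.63).

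Pgk1, the first ATP-making step, was at 0.861, 1.34, 1.55, 1.84 and 2.645 transcripts per cell in E10 non-HE, HE, EHT, IAHC and YS cells. Pgam1, which moves the phosphate group on the next intermediate, departed from that order, with 1.02, 1.306, 1.75, 0.904 and 2.07. The enolase entries summed gave 0.093 and 0.071 in non-HE and HE, 0.382 in EHT, 0.411 in IAHC and 0.794 in YS cells. Pkm, the pyruvate kinase of growing cells, had 1.33 and 1.38 in both kinds of endothelium, 1.97 in EHT, 2.15 in IAHC and 3.56 in YS cells.

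Ldha, which makes lactate, held 12.1% to 21.2% of the enzymes' transcripts and followed the same order of populations at E10. It went from 1.372 transcripts per cell in E10 non-HE to 2.22 in HE, 3.68 in EHT, 4.22 in IAHC and 7.70 in YS cells. At E11 it was at 1.80 in non-HE, 1.89 in HE, 3.54 in EHT, 4.53 and 4.24 in type 1 and type 2 pre-HSCs, 4.50 and 4.62 in the IAHC samples and 8.35 in YS cells. Across the 13 populations, with E11 cells thinned to 3000 transcripts, Spearman's rho between each enzyme and the sum of the others was highest for Pgk1 (0.95), Hk2 and Aldoa (both 0.93) and lowest for Pgam1 (0.49). The points share libraries and a fixed depth, and these values are a description.

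**Figure D3:**
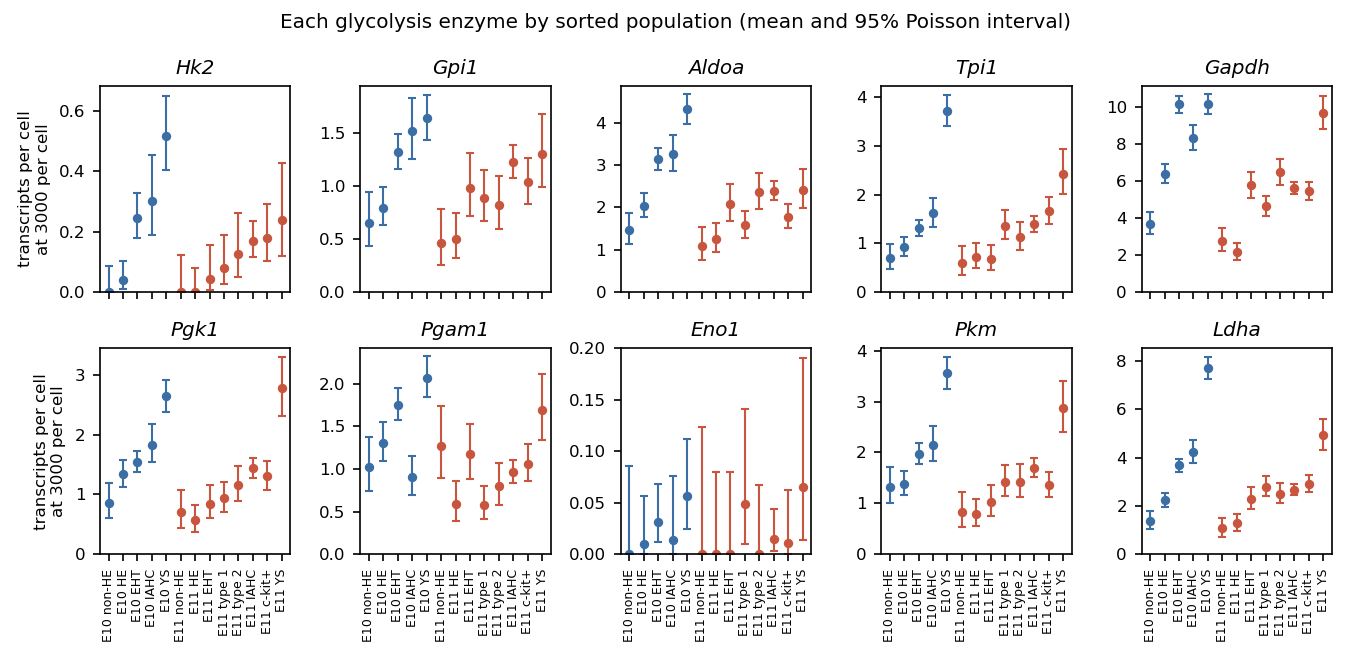
Mean transcripts per cell (y axes, at 3000 transcripts per cell, E11 cells thinned to that depth) of each enzyme in the 13 sorted populations (x axis), E10 in blue and E11 in red. Whiskers are 95% Poisson intervals. Hk2 is at 0 in non-HE of both stages and in E11 HE, Pgam1 is lower in IAHC (0.904 at E10) than in EHT cells (1.75), and Eno1 stays near 0.

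The comparison of EHT with HE cells asks what differs as endothelial cells become round c-kit+ blood cells. The ratio of transcripts per cell was taken over genes with a mean of at least 0.2 transcripts per cell over both populations, and a gene was counted as past 2-fold after a pseudocount of 0.1 per cell. At E10, 8 enzymes passed that level, all 8 had a ratio above 1, and 0 were past 2-fold, against 2.60% of 3610 genes past 2-fold higher and 5.98% past 2-fold lower. Their median log2 ratio was 0.54 beside 0.03 over all genes. Ldha stood 0.73 higher on the log2 scale (95% counting interval 0.51 to 0.95), Gpi1 0.73, Gapdh 0.67 (0.54 to 0.80) and Aldoa 0.62, while the interval of Pgk1 (0.21, -0.09 to 0.52) held 0. Hk2 was below the level filter, with 47 transcripts in 191 EHT cells and 4 in 98 HE cells, a log2 ratio of 2.59 with a counting interval of 1.14 to 4.53.

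At E11, 7 of the 8 enzymes had a ratio of EHT to HE above 1, and the median log2 ratio was 0.60 beside -0.06 over all genes. Gapdh alone was past 2-fold, at 2.41-fold (log2 ratio 1.27, 1.02 to 1.524), where 5.19% of 4911 genes were past 2-fold higher and 8.55% lower. Ldha was 0.91 higher (0.52 to 1.30), while the counting intervals of Tpi1 (-0.03, -0.58 to 0.53), Pgk1 (0.49, -0.105 to 1.097) and Pkm (0.33, -0.17 to 0.84) held 0. Of the 46 E11 EHT cells 2 carried at least 4 of 7 macrophage markers, and the summed macrophage markers averaged 5.20 transcripts per cell there and at most 0.73 in the other 12 populations. Without those 2 cells Gapdh was 2.33-fold and Ldha 1.85-fold higher, and the log2 ratio went from 0.76 to 0.28 (-0.29 to 0.86) for Pgam1 and from 0.33 to 0.09 for Pkm. The summed enzymes made up 0.457% of transcripts without them, against 0.484%. These populations are 1 sample each, so the ratios have no replicate check.

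**Figure D4:**
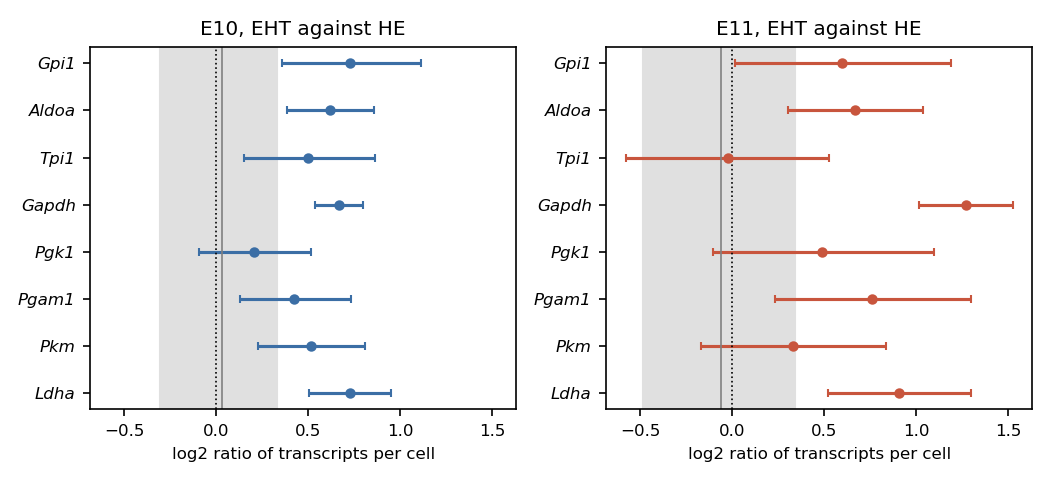
Log2 ratio of transcripts per cell, EHT against HE (x axis), for the 8 enzymes past the level filter, at E10 (left, blue) and E11 (right, red), with 95% intervals from the counts. The grey band spans the 25th to 75th percentile of all genes compared and the grey line their median. The enzymes lie to the right of 0 in both panels except Tpi1 at E11 (-0.03).

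Marker genes moved along the same populations as the enzymes. The 6 endothelial markers summed to 30.2 transcripts per cell in E10 non-HE, 22.7 in HE, 5.67 in EHT, 3.30 in IAHC and 0.199 in YS cells, and the 7 haematopoietic markers to 0.256, 2.01, 7.51, 8.397 and 4.96. The haematopoietic list includes Gpr56, on which the paper selected its IAHC cells, so their level of that list is in part set by the selection. Markers of dissociation stress (Fos, Jun, Egr1 and both Hspa1 genes) were at 4.09, 1.84, 1.51, 2.96 and 0.262. Within a population, cells with more endothelial marker transcripts held fewer of the enzymes, with Pearson's r of -0.51 over 191 E10 EHT cells, -0.53 over 46 E11 EHT cells, -0.41 over 98 E10 HE cells and -0.43 over 201 E11 c-kit+CD31+ IAHC cells. Weaker values were -0.15 in E10 YS, -0.18 in E10 non-HE, -0.19 in type 1 pre-HSCs and -0.25 in E11 HE cells, and r was 0.10 over 46 E11 YS cells. For the haematopoietic markers r was 0.0034 in E10 EHT, 0.026 in E11 EHT, 0.22 in E10 HE, -0.21 in E11 c-kit+CD31+ IAHC and -0.495 in E11 c-kit+ IAHC cells, where that of the endothelial markers was -0.47. The cells share a library and a fixed total, in which more transcripts of one kind leave fewer of another, and the part of markers, stress and depth in the enzymes' levels was not tested.

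HE cells held more of the enzymes than non-HE cells at E10, while at E11 the intervals of their shares overlapped. At E10 all 8 enzymes past the level filter had a ratio above 1 (median log2 ratio 0.41, all genes 0.04), with Gapdh at 0.80 (0.54 to 1.06) and Ldha at 0.70 (0.28 to 1.14), while the intervals of Gpi1, Tpi1, Pgam1 and Pkm held 0, and 0 were past 2-fold, against 2.21% of 3536 genes. At E11, 4 were above and 4 below (median -0.02), again with 0 past 2-fold (4.12% of 4906 genes higher, 3.53% lower), and Pgam1 was 0.93 lower (-1.51 to -0.37) in HE. The HE cells are those used against EHT cells above. The E10 non-HE value rests on sets of 28 and 15 cells that gave 0.317% and 0.467%.

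YS cells carried more of the enzymes than IAHC cells at both stages. At E10 all 9 enzymes past the level filter had a ratio above 1 (median log2 ratio 0.62, all genes 0.05), with the interval of Gpi1 (0.11, -0.23 to 0.45) holding 0, and Tpi1 (2.30-fold, log2 ratio 1.201, 0.91 to 1.502) and Pgam1 (2.29-fold, 1.196, 0.81 to 1.604) were past 2-fold higher, against 3.45% of 3249 genes (4.89% lower). With a pseudocount of 0.5 neither was past 2-fold. Ldha was 1.83-fold and Pkm 1.66-fold higher, and Gapdh only 1.221-fold. At E11 all 9 were again above 1 (median 0.70, all genes -0.01) and 0 were past 2-fold (1.65% of 4243 genes higher, 5.94% lower), led by Pgk1 (0.96), Tpi1 (0.92), Ldha (0.89), Pgam1 (0.74), Pkm (0.72) and Gapdh (0.71). The intervals of Gpi1 (0.01, -0.32 to 0.33), Aldoa (0.17, -0.06 to 0.39) and Hk2 (0.42, -0.52 to 1.28) held 0. Erythroid markers moved with this comparison, at 2.10 transcripts per YS cell and 1.616 per IAHC cell at E10 and 5.48 and 0.294 at E11, and leaving haemoglobin out of the totals gave 1.213% for E10 YS and 0.944% for E11 YS cells.

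With 3000 transcripts in every cell, the summed enzymes were lower at E11 than at E10 in each population sorted at both stages. Per cell they were at 7.85 (E11) and 16.4 (E10) in HE, 14.9 and 25.1 in EHT, and 17.6 and 24.1 in c-kit+CD31+ IAHC cells. In YS cells they were at 28.4 and 36.4, and in non-HE cells at 8.8 and 11.1. The Poisson intervals of the stages did not overlap in any of these, and they cover counting error only. In HE cells all 8 enzymes had a ratio below 1 (median log2 ratio -0.75, all genes -0.15), and Gapdh at -1.57 (-1.89 to -1.26), Pgk1 at -1.24 and Pgam1 at -1.15 were past 2-fold, against 4.92% of 3456 genes past 2-fold lower. With a pseudocount of 0.5 only Gapdh was past 2-fold, and the intervals of Gpi1 (-0.67, -1.41 to 0.02) and Tpi1 (-0.37, -0.99 to 0.22) held 0. In EHT cells all 8 were below 1 as well (median -0.72, all genes -0.24), with 0 past 2-fold (3.46% of 3328 genes), and Hk2, below the filter, had 2 transcripts in 46 thinned E11 cells and 47 in 191 E10 cells. The interval of Gpi1 held 0 (-0.43, -0.92 to 0.03), and without the cells with macrophage markers Pkm was past 2-fold lower. Markers moved with stage, from 5.67 transcripts per cell at E10 to 8.22 in thinned E11 EHT cells for the endothelial list and from 0.372 to 3.02 for the macrophage list, and from 1.84 to 3.15 in HE cells for the stress list, and beyond leaving out those cells their part in the result was not tested. In YS cells 8 of 9 enzymes had a ratio below 1, with a median of -0.31 beside -0.34 over all genes (Gapdh turned from -0.07 to 0.06 with its near-identical entries added), and in IAHC cells 8 of 9 with medians of -0.33 and -0.28, with 0 past 2-fold (7.08% and 2.53% of genes lower, 3.62% and 3.04% higher), and in each the intervals of 4 of the 9 held 0. In non-HE cells 7 of 8 enzymes had a ratio below 1 (median log2 ratio -0.36, all genes -0.12), but the interval left out 0 only for Gapdh (-0.41, -0.81 to -0.02), and 0 were past 2-fold (4.82% of genes). The E10 non-HE sets averaged 9.5 and 14 transcripts of the enzymes per cell, and the thinned E11 sets 8.58 and 9.18. The stages were deposited in separate tables with separate depths, so stage and table cannot be told apart in the single cells.

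Other genes around the pathway followed fixed lists. Of 19 further glycolysis genes and isozymes, 3 passed the level filter in the E10 comparison of EHT with HE and 6 at E11. Bpgm, which diverts an intermediate to bisphosphoglycerate, went down in level from non-HE to EHT cells, with 0.791 transcripts per cell in E10 non-HE, 0.276 in HE and 0.094 in EHT, and 1.43, 0.978 and 0.283 at E11, and was past 2-fold lower in E10 HE than non-HE and in E11 EHT than HE. Ldhb, the lactate dehydrogenase subunit that favours pyruvate, was past 2-fold higher in E11 EHT (0.457) than HE cells (0.087), and stood at 0.370 and 0.458 in E10 and E11 IAHC cells but 0.014 and 0.065 in YS cells. Hk1, the housekeeping hexokinase, went from 0.116 in E10 non-HE to 0.780 in E10 YS cells.

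Of 14 transport and regulation genes, 2 passed the level filter in the E10 comparison of EHT with HE and 5 in that of E10 YS with IAHC cells. Slc16a3, the lactate exporter MCT4, had 0.674 transcripts per cell in E10 YS and 0.027 in E10 IAHC cells. It was the 1 gene of the list past 2-fold there, where 3.45% of all genes were past 2-fold higher and 4.89% lower. Slc2a1, the glucose transporter GLUT1, was past 2-fold higher in E10 HE (0.816) than non-HE (0.279) and at 0.529 in EHT cells. Of 7 pentose phosphate genes 4 passed in the EHT and HE comparison at each stage and 0 were past 2-fold. Over all genes 2.60% at E10 and 5.19% at E11 were past 2-fold higher, and 5.98% and 8.55% lower. Tkt, the transketolase, was at 0.388 in E10 HE, 0.749 in EHT, 1.80 in IAHC and 2.57 in YS cells.

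The hypoxia list did not move as 1 group. Of its 16 genes 5 passed the level filter between EHT and HE at E10, with 1 past 2-fold higher and 1 past 2-fold lower. Over all 3610 genes 2.60% were past 2-fold higher and 5.98% lower. The median log2 ratio of the list was -0.43 beside 0.03 over all genes. Mif, a cytokine gene that hypoxia induces, was 2.48-fold higher in E10 EHT (4.83) than HE cells (1.95), and Epas1, which encodes HIF-2α of endothelium, was 5.41-fold lower (0.440 and 2.38). At E11, Epas1 (1.41 and 6.59) and Vegfa (0.065 and 1.04), the endothelial growth factor, were past 2-fold lower, as were 8.55% of all genes. Hif1a stayed between 0.163 and 0.439 transcripts per cell in the E10 populations. Of 17 pyruvate dehydrogenase and citric acid cycle genes 16 passed at E10 (median 0.32, all genes 0.03). Ogdh, a subunit of oxoglutarate dehydrogenase, was the 1 past 2-fold, where 2.60% of all genes were higher and 5.98% lower. It was at 1.25 in HE, 3.16 in EHT and 0.548 in IAHC cells.

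Further list genes were past 2-fold between HE and non-HE cells and between the stages. Pdha1, a subunit of pyruvate dehydrogenase, was higher in E10 HE (0.337 transcripts per cell) than non-HE cells (0.093), as was Mif (1.95 and 0.837), while Vegfa was lower at E10 (0.163 and 0.488) and higher at E11 (1.04 and 0.233). By stage, with E11 cells thinned to 3000 transcripts, HE cells had less Slc2a1 (0.196 at E11 and 0.816 at E10) and Mif (0.609 and 1.95) and more Vegfa (0.587 and 0.163). EHT cells had less Mif (1.522 and 4.83) and Fh1, the fumarase gene (0.196 and 0.503), and more Ldhb (0.391 and 0.131). YS cells had less Hk1 (0.326 and 0.780), Slc16a3 (0.261 and 0.674) and Pgls, the lactonase of the pentose phosphate pathway (0.565 and 1.234). Non-HE cells had less Vegfa (0.167 and 0.488) and Cs, the citrate synthase gene (0.367 and 0.930). Ldhb was also lower in E11 YS (0.0652) than E11 IAHC cells (0.458). These counts are small, from 5 to 40 transcripts a population for Vegfa and Cs in non-HE cells by stage. In c-kit+CD31+ IAHC cells 0 genes of these lists were past 2-fold between stages, where 3.04% of all genes were higher and 2.53% lower.

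The genes whose level over the 13 populations ranked most like the sum of the enzymes, among 3177 genes, were Shmt2 (Spearman's rho 0.98), a mitochondrial enzyme of serine and folate metabolism, Ipo5 (0.98), a nuclear import receptor, Nme1 (0.97), a nucleoside diphosphate kinase, Nudt5 (0.97), an ADP-sugar hydrolase, and Clns1a (0.96). Glrx5, Hdgf, Snx5 and Timm8a1 tied with the last. These are descriptions over populations that share libraries.

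For wIAHCs, 57 of 109 libraries held at least 5000 transcripts and were used: 7 of 18 E10 dorsal, 21 of 36 E10 ventral, 12 of 21 E11 dorsal and 17 of 34 E11 ventral. Their totals ran from 5099 to 115300 transcripts, with group medians of 14060, 14540, 8244 and 12840. Haemoglobin made up a median of 0.0301%, 0.0138%, 0.190% and 0.303% of transcripts in these groups and up to 27.5% in 1 E11 dorsal library. Libraries of the same embryo cannot be recognised, so p-values measure the spread between libraries. A wIAHC is a small bulk sample, in which fewer cells of a type and less RNA per cell cannot be told apart.

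Ldha was lower in E11 than in E10 ventral wIAHCs. Its level per 10000 transcripts ran over 6.26, 11.02 and 18.05 (lowest, median and highest) in 21 E10 ventral libraries and over 2.40, 4.729 and 10.99 in 17 E11 ventral libraries. The groups overlapped, with the E11 median below every E10 ventral library. Ldha fell by 0.91 on the log2 scale (SE 0.19, adjusted p = 0.000115, edgeR's quasi-likelihood test with Benjamini-Hochberg adjustment over the 260 genes that passed its count filter), and over the alternatives tried the adjusted p ran from 1.7e-05 to 0.00603.

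Pkm and Aldoa fell with it on the ventral side, less surely. Pkm ran over 3.49, 6.74 and 22.8 per 10000 transcripts at E10 and over 0, 4.43 and 9.08 at E11 (log2 change -0.66, SE 0.23, edgeR adjusted p = 0.0222, 0.0168 to 0.195 over 13 alternatives). Aldoa ran over 0, 6.58 and 9.10 at E10 and over 0.965, 3.14 and 7.95 at E11 (-0.71, SE 0.27, edgeR adjusted p = 0.0350, 0.00269 to 0.391 over the 11 of 14 alternatives in which it was tested). For both genes the libraries of the stages overlapped, and the E11 medians were the lower ones. Gapdh did not pass, with medians of 19.74 and 16.22 (-0.20, SE 0.17, edgeR adjusted p = 0.351), and -0.05 with its near-identical entries added. Over all 260 genes 13.1% were called lower (34 genes lower, 47 higher). The count filter lets through genes that are high in E10 libraries alone, and Ldha, Pkm and Aldoa had their higher medians there, so nothing is read from the number of enzymes called against that share.

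Column names of E11 wIAHCs fall into 2 series on each side, called set 1 and set 2 here, and no label says what they stand for. Each E11 set was compared with E10 on its own. Ldha fell in both, by 1.13 in set 1 (4 ventral libraries, edgeR adjusted p = 0.00603) and by 0.82 in set 2 (13 libraries, edgeR adjusted p = 0.000687). Aldoa was called in set 2 only (-0.79, edgeR adjusted p = 0.0361, set 1 -0.57) and Pkm in neither (-0.72 and -0.61, edgeR adjusted p = 0.195 and 0.0501). E10 wIAHCs form 1 set a side, so stage and set cannot be told apart. Erythroid markers moved with stage, from a median of 1.517 per 10000 transcripts in E10 ventral to 30.3 in E11 ventral libraries. Ventral medians also went from 3.98 to 2.63 for the stress list, 0 to 0.965 for the mesenchyme list and 1.06 to 0.707 for the macrophage list. They were 4.97 and 5.28 for the endothelial and 17.09 and 18.44 for the haematopoietic list, and the part of these 5 lists was not tested. Without the libraries over 10% haemoglobin, Ldha was at -0.94 and Pkm at -0.59, both still called by edgeR, and Aldoa at -0.66 (edgeR adjusted p = 0.0575).

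On the dorsal side the enzymes had log2 changes of like size that did not pass the test. Pkm ran over 6.52, 8.76 and 15.3 per 10000 transcripts in 7 E10 libraries and over 0.904, 3.199 and 8.96 in 12 E11 libraries (-0.98, SE 0.35, edgeR adjusted p = 0.0608). Ldha ran over 3.25, 7.31 and 12.01 and over 0.904, 3.89 and 7.19 (-0.80, SE 0.30, edgeR adjusted p = 0.0726). Aldoa was at -0.67 (edgeR adjusted p = 0.348) and Gapdh at -0.24 (edgeR adjusted p = 0.627), or -0.01 with its near-identical entries added. Markers moved with the dorsal comparison, from E10 to E11 medians of 3.02 and 9.38 per 10000 transcripts for the endothelial list, 3.01 and 18.99 for the erythroid list, 13.6 and 19.09 for the haematopoietic list, 4.30 and 1.01 for the stress list, 0.087 and 1.245 for the mesenchyme list and 0.606 and 0 for the macrophage list, and their part in these values was not tested. None of the 4 was called, where 1.92% of genes were called lower, and the interaction of stage and side was called for 0 of 260 genes by edgeR (0%; 26 genes at an unadjusted p under 0.05, 0 called by DESeq2), with edgeR adjusted p of 0.878 or more for the 4.

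**Figure D5:**
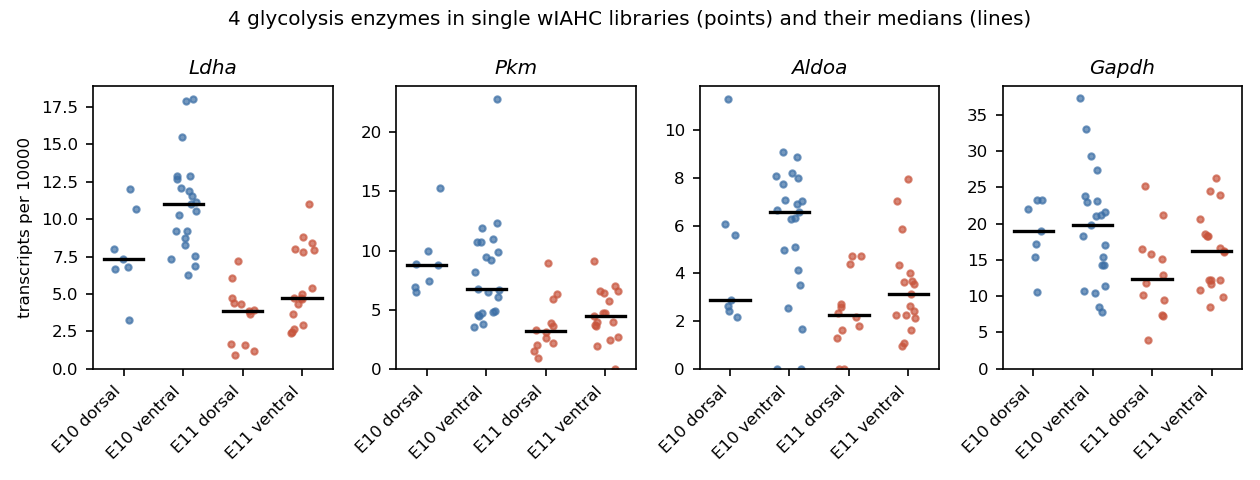
Transcripts per 10000 (y axes) of the 4 enzymes that passed the count filter, in single wIAHC libraries (points) by stage and side (x axes), with medians as lines. The Ldha medians are 7.31 and 11.02 in E10 dorsal and ventral libraries and 3.89 and 4.729 at E11, and the Gapdh medians are 18.96, 19.74, 12.4 and 16.22 in the same order.

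The count filter of edgeR left 260 genes, so a lower minimum count of 2 was tried after the data had been seen, which left 3007 genes and 8 of the 10 enzymes. On the ventral side Ldha (-0.94), Pkm (-0.70) and Aldoa (-0.76) fell, where 2.49% of genes were called lower. Not called were Pgk1 at -0.56 (edgeR adjusted p = 0.130), Tpi1 at -0.57 (edgeR adjusted p = 0.165), Pgam1 at -0.38, Gapdh at -0.21 and Gpi1 at 0.22. On the dorsal side Pkm (-1.40, edgeR adjusted p = 0.00824), Ldha (-1.19, edgeR adjusted p = 0.0205) and Pgk1 (-1.21, edgeR adjusted p = 0.0469) fell, where 2.59% of genes were called lower and the median over all genes was itself -0.24. Aldoa (-1.07), Tpi1 (-0.87), Gapdh (-0.67), Pgam1 (-0.03) and Gpi1 (0.22) were not called there. Pgk1 ran over 3.02, 4.35 and 6.74 per 10000 transcripts in E10 dorsal and over 0, 2.57 and 5.86 in E11 dorsal libraries. The enolase entries summed fell by 1.36 on the ventral side (SE 0.375, edgeR adjusted p = 0.00999) and had a change of -0.74 on the dorsal side (edgeR adjusted p = 0.644).

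Ventral and dorsal wIAHCs were compared at each stage. The E11 comparison pools 2 sets in which the sides are uneven, with 6 dorsal and 4 ventral libraries in set 1 and 6 and 13 in set 2. The summed enzymes ran over 42.9, 50.4 and 64.3 per 10000 transcripts in E10 dorsal and over 26.5, 59.9 and 92.2 in E10 ventral libraries, and over 13.8, 33.6 and 53.1 in E11 dorsal and 25.4, 43.04 and 70.8 in E11 ventral libraries. None of the 4 enzymes tested was called between the sides at either stage. By edgeR 0 of 260 genes were called at E10 (0%; 20 at an unadjusted p under 0.05, DESeq2 called 0) and 0 at E11 (0%; 23 at an unadjusted p under 0.05, DESeq2 called 1 of 13627). Of these 4 enzymes Ldha had the largest E10 difference, higher on the ventral side by 0.52 at E10 (95% interval 0.05 to 1.00, edgeR adjusted p = 0.555) and by 0.42 at E11 (-0.10 to 0.94, edgeR adjusted p = 0.645).

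From the lists of other genes, Mif, Tkt and Ogdh passed the count filter in wIAHCs. Mif fell on the dorsal side by 0.99 (SE 0.27, edgeR adjusted p = 0.0102), from a median of 12.6 to one of 4.55 per 10000 transcripts, and its ventral change was -0.38 (edgeR adjusted p = 0.0824). The dorsal call was lost with a library minimum of 10000 transcripts (edgeR adjusted p = 0.242). Tkt changed by -0.64 on the ventral side (edgeR adjusted p = 0.0664) and -0.70 on the dorsal side (edgeR adjusted p = 0.313). The ventral changes lay near the threshold, and passed it in 8 of 57 fits without 1 library for Mif (-0.48 to -0.32 over all 57; E10 ventral replicates 16, 20, 25 and 33, E11 ventral 20, 22 and 32 and E11 dorsal 16) and in 8 of 53 for Tkt (-0.72 to -0.50; E10 ventral replicates 5, 16, 17, 20 and 25, E11 ventral 16 and 20 and E11 dorsal 16). Ogdh rose 2.36-fold on the ventral side (SE 0.36 on the log2 scale, edgeR adjusted p = 0.00564), from 0, 3.12 and 9.18 (lowest, median and highest) to 1.202, 4.729 and 43.4 per 10000 transcripts, and lost that call with E11 set 1 alone (edgeR adjusted p = 0.123). Its dorsal log2 change of 0.12 has no settled direction, at -0.61 to 0.25 without each library and below 0 without E10 dorsal replicate 8 or E11 dorsal replicate 4. The interaction of stage and side was not called for any of the 3 (edgeR adjusted p = 0.494 for Mif and for Ogdh). Idh3a, a subunit of isocitrate dehydrogenase, was tested only with lower count limits, where it fell on the dorsal side (-2.48 with a minimum count of 2, SE 0.73, edgeR adjusted p = 0.0358). Hk2 was detected in 6 of 7 E10 dorsal, 13 of 21 E10 ventral, 4 of 12 E11 dorsal and 8 of 17 E11 ventral libraries and did not pass the filter.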

How the data were processed

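Single cells and picked wIAHCs were sequenced by CEL-Seq. Per the labels' processing notes reads were mapped with BWA 0.6.2-r126 to mm10. In the wIAHC table the authors deposited UMI counts corrected for collisions among 256 UMIs, which are estimated counts and were rounded here. The correction could be undone to whole UMIs (largest deviation 3.13e-13) except in 6 saturated pairs of gene and library, which were set to 256 UMIs. The 90 spike-in entries were left out, and 52 of 109 libraries under 5000 transcripts were not used. The deposited single-cell values are such estimated counts, down-sampled by the authors to 3000 (E10) or 5000 (E11) transcripts a cell with 0.1 added, which was subtracted. No 2 columns were identical. Cells were sorted into single wells, so no doublet caller was run.

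Libraries of wIAHCs were compared with edgeR 4.0.16 in R 4.3.3 (quasi-likelihood test, TMM, filterByExpr, 4 groups of stage and side, Benjamini-Hochberg at 0.05), tested on simulated data. DESeq2 1.42.0 was an alternative. Single cells were summed per population with exact Poisson 95% intervals (scipy 1.17.1), and E11 cells were thinned to 3000 transcripts for comparisons between stages. Promoters and positions are from RefSeq GRCm38.p6, and near-identical copies were searched in GENCODE M21 transcripts.

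The enzymes and lists were chosen with earlier results of these data known. Each of the 10 enzymes has values, but not in every population, stage or comparison. Values are also given for list genes called or past 2-fold, for isozymes of at least 0.2 transcripts per cell in 1 population, and for the 5 genes ranked most like the sum.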

Additional observations from a re-analysis of the deposited data

Results flagged for a closer look

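The 7 E10 dorsal wIAHC libraries were examined for a value far from the others in 11 quantities, and 2 held one at the high end, where chance gives about 1 in 20. For Aldoa the highest library had 11.3 transcripts per 10000 and the next 6.06, a gap of 0.574 of the range against a critical value of 0.568. For Pkm the highest had 15.3 and the next 9.99, a gap of 0.606 of the range.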

How the results depend on the processing

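On the ventral side 3 enzymes were called lower at E11, and 1 with only the 2 groups compared in the fit. Pkm and Aldoa did not pass the count filter of that fit and were not tested in it. The number called was 1 with no low-count filter, 1 with E11 set 1 alone (chosen after seeing the data) and 2 to 3 without each library in turn. On the dorsal side 0 were called, and 2 with no low-count filter, 1 with whole UMIs, 3 with a minimum count of 2, 3 with that minimum and the enolase entries summed (both chosen after seeing the data), and 0 to 1 without each library. Between sides and for the interaction 0 were called without each library. Ventral Ldha was called in all 57 fits without a library (log2 change -1.01 to -0.85), as was Pkm (-0.76 to -0.54). Aldoa passed the count filter in 29 of these fits and lost its call without E11 ventral replicate 34. By DESeq2 Pkm lost its ventral call (adjusted p = 0.0598). The dorsal Ogdh change of 0.12 turned to -0.34 with a library minimum of 10000 transcripts, -0.43 with no low-count filter, -0.29 with a minimum count of 2, -0.28 with that minimum and the enolase entries summed, -0.76 with E11 set 2 alone, and -0.61 to 0.25 without each library. The cause was not tested. The ventral counts of all genes higher and lower were 47 and 34, and 138 and 75 with a minimum count of 2, 184 and 126 with no filter and 169 and 75 by DESeq2, while the dorsal counts were 19 and 5, 26 and 78, 25 and 82, and 48 and 13. Between sides and for the interaction, where 0 genes were called, a minimum count of 2 gave 0 higher and 11 lower at E10, 1 and 0 at E11 and 1 and 0 for the interaction, and no filter gave 2 and 6, 11 and 1, and 19 and 2.

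With the near-identical entries added, chosen after seeing the data, the shares were 0.465%, 0.689%, 1.101%, 1.01% and 1.435% in E10 non-HE, HE, EHT, IAHC and YS cells, and 0.396%, 0.354%, 0.656%, 0.580%, 0.700%, 0.727%, 0.659% and 1.205% in E11 non-HE, HE, EHT, type 1, type 2, c-kit+CD31+ IAHC, c-kit+ IAHC and YS cells. Without each sorted set they ran from 0.317% to 0.467% in E10 non-HE, 0.526% to 0.585% in HE, 0.823% to 0.867% in EHT and 1.183% to 1.237% in YS cells, and at E11 from 0.290% to 0.313% in non-HE, 0.474% to 0.518% in type 1, 0.535% to 0.603% in type 2, 0.562% to 0.614% in c-kit+CD31+ IAHC and 0.554% to 0.569% in c-kit+ IAHC cells. The enzymes past 2-fold went from 0 to 1 for E10 EHT against HE with a level filter of 0.05 (Hk2) or with copies added (Eno1), from 2 to 0 for E10 YS against IAHC and from 3 to 1 for HE by stage with a pseudocount of 0.5, from 0 to 1 for E11 YS against IAHC with copies added, and from 0 to 1 for EHT by stage with a filter of 0.05 (Hk2) or without macrophage-marker cells (Pkm). With copies added the Gapdh ratio of YS cells by stage turned from -0.07 to 0.06 and the Eno1 ratio of EHT cells by stage from below 0 to 0.03. A term for the set could not be run for E10, as each side is 1 set. No analysis paired by embryo was possible because library numbers do not mark shared embryos and each sorted population is 1 sample, and the 3 shared sets of the pre-HSC types are given as values. Hk2 and Eno1 are too sparse at this depth for a test.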
